A study of Mus musculus with 16 samples.

Results

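Obstruction was compared with control in wildtype (WT) mouse kidneys on 9 of the 16 arrays of the series: 7 kidneys 24 h after unilateral ureteral obstruction (UUO) and 2 WT control kidneys. The arrays were chosen by the genotype and treatment in their labels, and no measured value was used. In UUO, a metal clip had closed the left ureter under anesthesia. The mice were on the C57BL/6J BomTac background and 8 weeks old unless the study stated otherwise, and their sex is not given in the labels. The UUO kidneys came from set 1 (3 kidneys) and set 2 (4 kidneys) of mice, while the labels name no set for the controls. No sham operation is named for the control arrays, so effects of the operation and of the obstruction cannot be told apart. Each array goes by the number its label carries. The labels do not say that each array is a separate mouse, so p-values measure only the spread between these samples. The other 7 arrays, from mice that lack the *Il33* gene product (IL-33 KO; 5 UUO and 2 control kidneys), shared the estimate of the spread and were used for 1 comparison.

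Each nephron starts at a glomerulus, whose podocytes and capillaries filter plasma, and continues as a chain of segments that take back what was filtered. The proximal tubule reclaims phosphate, glucose and amino acids, secretes organic ions, makes glucose and runs on mitochondrial oxidation. The thick ascending limb and distal convoluted tubule reclaim salt, and the principal and intercalated cells of the collecting duct handle water, sodium and acid. Closing the ureter raises the pressure in the tubules, and obstructed kidneys are known for tubular injury, inflammation and, later, fibrosis. The comparison asked which of these segments, metabolic pathways and injury programs differed in their transcripts after 24 h.

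RNA of whole-kidney homogenate was measured on Illumina MouseRef-8 BeadChips, and values are log2 of the deposited intensity of each of 18132 genes. In bulk tissue, fewer cells of a type and less RNA per cell cannot be told apart. Values near the lowest log2 intensity of the table, 6.58, are background, and folds of dim genes are understated for that reason. Whether the array can detect the transcript of a gene at background was not tested. Defining kidney markers were present: the proximal *Slc34a1* and the thick limb gene *Umod* were at a mean of 14.28 and 13.82 in the controls. Arrays correlated at 0.972 to 0.9965 among the UUO kidneys and at 0.9958 between the controls. 2 UUO kidneys of set 1 stood apart. Kidney 3820 lay nearest to the controls in 56.2% of all called genes and kidney 3818 in 23.6%, against 2.19% to 5.39% for each of the other 5. Kidney 3818 also carried liver transcripts: *Mup1* was at 12.07 there against 6.77 to 6.91 in the 8 other WT arrays, *Hpx* at 10.42 against 6.91 to 7.21 and *Apoa1* at 9.75 against 6.93 to 7.02. Of 45 liver genes on a list written after these values had been seen, 33 were highest in kidney 3818, 17 of them by more than a log2 of 1. The mean of all 45 was 8.43 in kidney 3818 against 7.11 to 7.21 in the 8 other WT arrays. *Alb* (6.79) and *Fgb* (6.67), which define liver as well, were at background in kidney 3818, and 17 of the 45 genes stayed under 7.2 in every WT array.

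After 24 h of UUO, 1256 genes were higher (6.93% of 18132) and 1527 were lower (8.42%) at an adjusted p under 0.05 in limma. The difference was at least 2-fold for 178 of the higher and 150 of the lower genes, and at least 4-fold for 27 and 18. Among the called genes, every UUO kidney lay above both controls in 1109 of the 1256 higher and below both in 1384 of the 1527 lower genes, where 9.81% and 11.7% of all genes separated in these ways. The median log2 difference of all genes was -0.0025. The controls weighed most: with 1 control left, the spread of the lone sample being assumed to equal that of the other groups, limma called 454 higher and 610 lower genes without control 3811 and 365 and 453 without control 3812.

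The largest rises were in a marker of proximal tubule injury, in secreted defense and acute-phase proteins and in a protease inhibitor. *Havcr1*, which encodes kidney injury molecule-1, was at 7.24 and 7.22 in the controls and at a lowest, median and highest of 10.41, 13.51 and 13.95 in the UUO kidneys. All 7 were far above both controls, and kidney 3820 was the lowest. The log2 difference was 5.78 (SE 0.62, adjusted p = 6.03e-05, 2 against 7 arrays, limma), a 54.9-fold rise. *Lcn2*, which encodes the iron-siderophore carrier NGAL, was at 7.65 and 7.45 in the controls and at 11.84, 13.40 and 13.60 after UUO, a 48.5-fold rise (log2 difference 5.60, SE 0.35, limma adjusted p = 5.52e-07). The other 8 of the 10 largest rises were *Fgg*, *Fga*, *Timp1*, *Cyp4a14*, *Serpina10*, *Cxcl1*, *Lrg1* and *C3*, with log2 differences of 3.32 to 5.03. The order depends on background: with 80 subtracted from each intensity, *Krt20*, which is not among the 10, had the same log2 difference as *Timp1* (4.90) and a larger one than *Fga* (4.17) and *C3* (3.64).

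The largest falls were in genes of the thick ascending limb, the distal tubule and the proximal tubule. *Egf*, the growth factor made by the thick limb and distal tubule, was at 12.54 and 12.04 in the controls and at 7.23, 7.40 and 11.17 after UUO. 5 UUO kidneys were at 7.23 to 7.66, kidney 3818 was at 8.96 and kidney 3820 at 11.17. The log2 difference was -4.14 (SE 0.76, limma adjusted p = 0.00214), a 17.6-fold fall that became -4.64 without kidney 3820. *Inmt*, a methyltransferase of small amines, fell by 3.82 on the log2 scale (SE 0.39, limma adjusted p = 4.09e-05), from 13.09 and 13.53 to 8.48, 9.53 and 10.47. The other 8 were *Wfdc15b*, *G6pc*, *Nccrp1*, *Slc12a1*, *Pvalb*, *BC026439*, *Slc4a1* and *C1qtnf3*, at 4.46-fold to 9.92-fold. *G6pc* and *BC026439* were not called without either control, and *Slc12a1* was not called without control 3811.

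The promoters of 4 of these genes are shown for the motif letters they hold. RefSeq promoters (GRCm38.p6) were matched to 13415 of the genes tested, and 6 motifs were searched on both strands in the 300 bases from 250 before to 50 after the start. The letters TTAATNATT, the core of the motif of HNF1, a factor of tubule and liver cells, were in 2.01% of 1193 promoters of genes called lower, in 0.531% of 942 called higher and in 1.36% of all. Among the genes lower by at least 4-fold, a group formed after the values were seen, 9 of 18 had a promoter, and 3 of the 9 held these letters, against 1 of 19 promoters of genes higher by at least 4-fold. The rising matrix gene *Col3a1* holds them as well. The 3 among the lower genes are *Slc12a1* (chr2:125152350-125152599, plus strand), *G6pc* (chr11:101367466-101367715, plus strand) and *Wfdc15b* (chr2:164221664-164221913, minus strand). *Fga* (chr3:83025903-83026152, plus strand), among the largest rises, holds the STAT letters TTCNNNGAA, found in 7.11% of the promoters called higher and 7.79% of all. The 250 bases before each start follow, 5′ to 3′ on the strand of the gene, with the matching letters in capitals.
Slc12a1: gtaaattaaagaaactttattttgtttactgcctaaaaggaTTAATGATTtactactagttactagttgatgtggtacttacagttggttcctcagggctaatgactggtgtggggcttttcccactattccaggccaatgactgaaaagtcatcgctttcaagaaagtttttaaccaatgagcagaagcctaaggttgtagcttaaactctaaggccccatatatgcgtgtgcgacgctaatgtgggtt
G6pc: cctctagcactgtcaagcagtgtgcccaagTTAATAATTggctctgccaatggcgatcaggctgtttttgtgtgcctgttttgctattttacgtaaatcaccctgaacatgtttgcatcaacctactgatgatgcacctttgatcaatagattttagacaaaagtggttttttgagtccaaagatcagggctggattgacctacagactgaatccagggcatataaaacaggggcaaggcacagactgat
Wfdc15b: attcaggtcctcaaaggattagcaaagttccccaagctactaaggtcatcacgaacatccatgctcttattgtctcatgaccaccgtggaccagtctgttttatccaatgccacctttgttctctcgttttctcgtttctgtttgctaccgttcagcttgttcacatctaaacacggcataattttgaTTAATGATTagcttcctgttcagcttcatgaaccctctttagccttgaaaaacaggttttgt
Fga: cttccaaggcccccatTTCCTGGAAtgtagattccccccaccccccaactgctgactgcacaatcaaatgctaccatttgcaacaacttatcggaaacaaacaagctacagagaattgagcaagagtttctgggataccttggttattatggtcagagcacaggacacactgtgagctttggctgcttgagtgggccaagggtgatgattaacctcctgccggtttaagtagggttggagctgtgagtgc
A match is a run of letters and not a bound site. The letters of AP-1 (TGANTCA) were in 7.01% of the promoters called higher, 4.69% of those called lower and 7.09% of all. The letters of NF-kB (GGGACTTTC) were in 0.318%, 0.251% and 0.395%, those of CRE (TGACGTCA) in 3.18%, 2.93% and 2.53%, and those of HNF4 (CAAAGTCCA) in 0.106%, 0.838% and 0.44%.

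Lists of 17 cell types and 23 programs, with 646 measured genes, were then read against the shares of all genes. Of these genes 115 were called higher and 122 lower. List members were chosen with earlier results of these data known. Many lists hold mainly genes brighter than the median gene, such as 11 of 11 for the thick limb and 25 of 29 for fatty acid oxidation. A fit of brighter genes alone called 1423 higher and 1611 lower, so they were called more often than all genes. A list of bright genes can therefore pass the share of all genes without standing out from other bright genes.

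**Figure D1:**
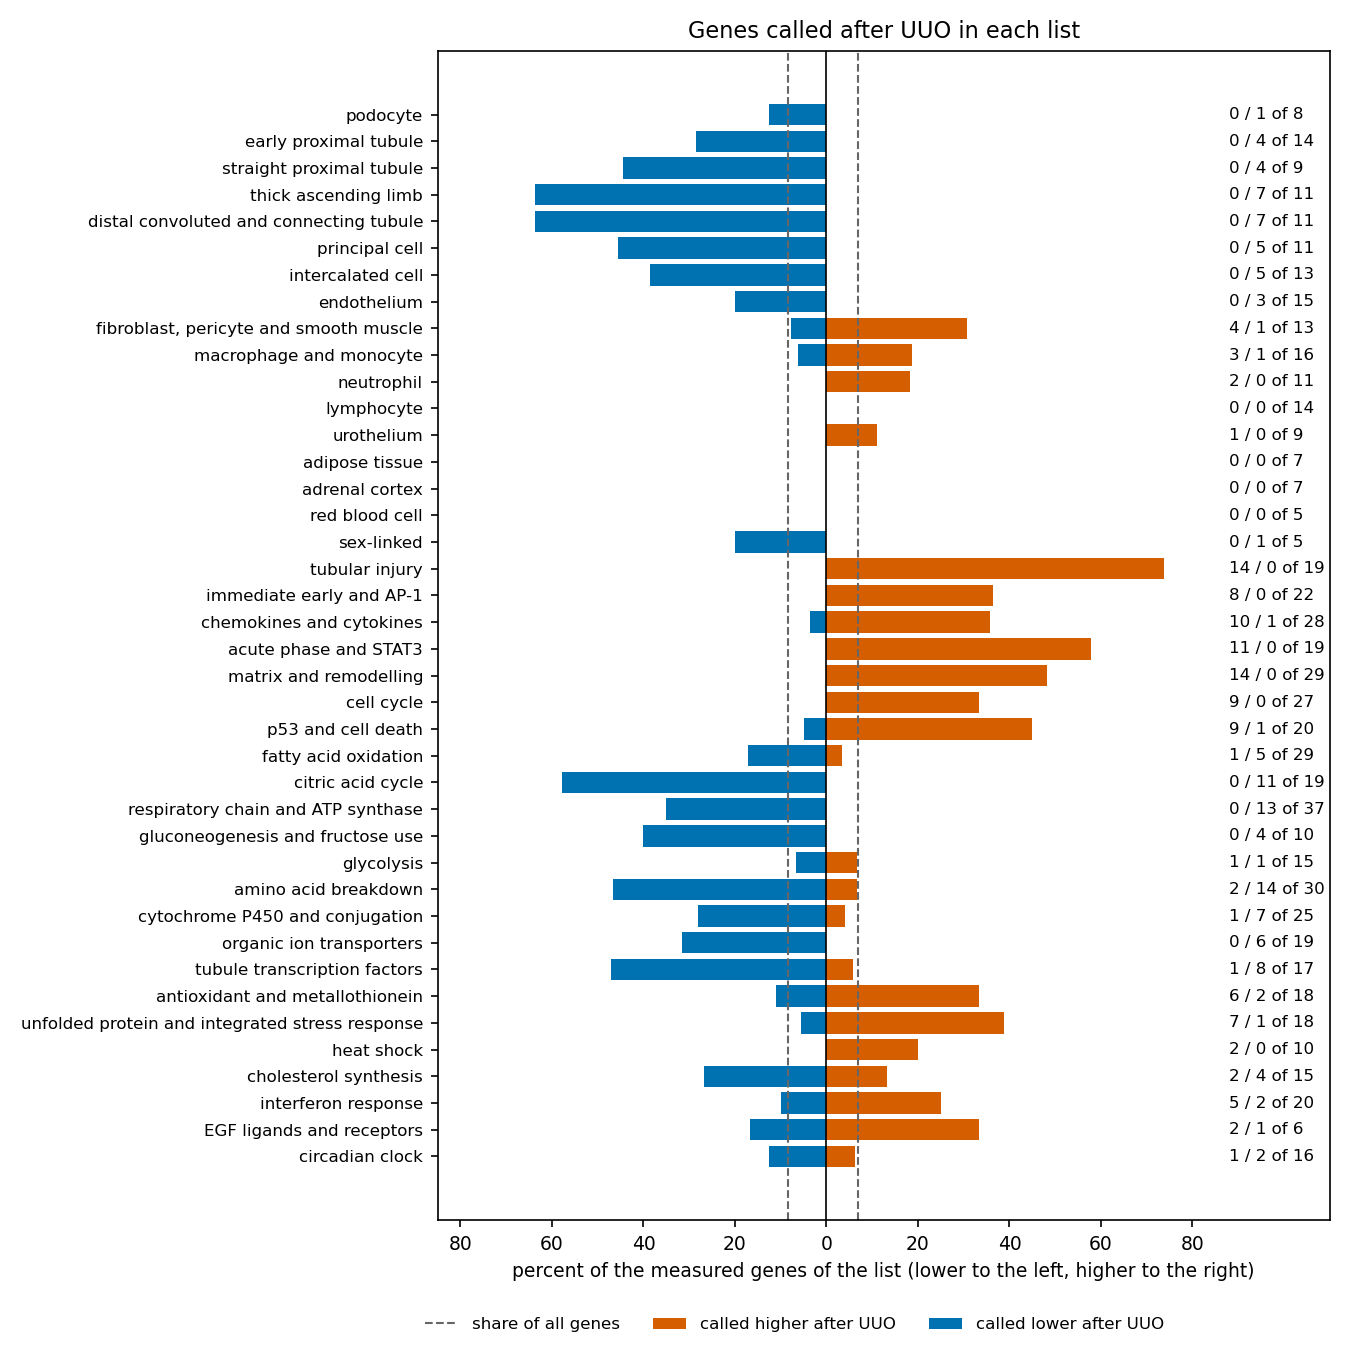
Percent of the measured genes of each list that limma called lower (blue, to the left) or higher (orange, to the right) after UUO in WT kidneys at an adjusted p under 0.05, with the counts higher / lower of measured at the right. The dashed lines mark the shares of all genes, 8.42% lower and 6.93% higher, and genes brighter than the median gene were called more often than this. All 6 tubule segment lists reach past the left line, and tubular injury (14 of 19) and acute phase (11 of 19) reach far past the right line.

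In a fit of the 9 WT arrays alone, which estimates the spread without the KO kidneys, some list counts moved by more than 1.5 times. The lower calls became 2 for principal cells, 6 for the respiratory chain, 2 for gluconeogenesis, 3 for organic ion transporters, 1 for interferon and circadian genes and 0 for glycolysis and antioxidant genes, and 1 urothelium gene was called lower. The higher calls became 1 for fibroblast and smooth muscle, neutrophil and interferon genes, 5 for immediate-early genes, 2 for the cell cycle and for cytochrome P450 and conjugation, 4 for p53 and cell death, and 0 for tubule transcription factors, heat shock, the EGF family and circadian genes.

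The proximal tubule lists held lower genes and no higher genes. Of 14 early proximal genes, 4 fell (median log2 difference of the list -0.66), and of 9 straight proximal genes, 4 fell (median -0.69). *Miox*, the renal oxygenase that opens the ring of myo-inositol, was at 14.05 and 14.07 in the controls and at 11.40, 11.89 and 13.19 after UUO, with no overlap. It fell 4.04-fold (log2 difference -2.02, SE 0.38, limma adjusted p = 0.00246). *Slc5a8*, a lactate and monocarboxylate carrier, was at 10.88 and 10.74 and then at 8.86, 9.11 and 10.25, a 2.90-fold fall (limma adjusted p = 0.00166). The phosphate carrier *Slc34a3* fell by 1.48, the amino acid carrier *Slc7a8* by 1.16, the creatine enzyme gene *Gatm* by 0.63 and the anion carrier *Slc22a7* by 1.36 on the log2 scale. *Slc34a1*, the main phosphate carrier, was at 14.33 and 14.23 in the controls and at 12.95, 13.77 and 14.28 after UUO. Kidney 3820 lay between the controls and the other 6 below both, and the difference of -0.60 (SE 0.31) did not pass (limma adjusted p = 0.247). The endocytic receptor gene *Lrp2* was near background (7.44 and 7.52, then 7.06, 7.24 and 7.62) and did not pass either (-0.24, adjusted p = 0.184 in limma).

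Among the UUO kidneys, kidney 3820 stood apart in the early proximal tubule. The mean of the 14 genes relative to the control mean was -0.06 in kidney 3820 and -0.48 to -1.24 in the other 6 UUO kidneys. Without kidney 3820, 9 of the 14 early proximal genes were called lower, and 11 without kidneys 3818 and 3820. The water channel gene *Aqp1* showed the same order of kidneys, at 12.52 and 12.51 in the controls, 12.69 in kidney 3820 and 11.14 to 12.04 in the others (difference -0.76, limma adjusted p = 0.0953). Of the straight proximal genes, 2 were called without control 3811 and 2 without control 3812.

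The thick ascending limb had the lowest median of the segments, -0.75 over 11 genes, 7 of which fell and none rose. *Slc12a1* encodes the furosemide-sensitive sodium-potassium-chloride cotransporter NKCC2. It was at 12.13 and 11.86 in the controls and at 7.83, 8.38 and 10.98 after UUO, with kidney 3820 highest and kidney 3818 next at 9.89. It fell 8.65-fold (log2 difference -3.11, SE 0.61, limma adjusted p = 0.00326). The chloride channel subunit gene *Bsnd* fell by 1.84, the potassium channel gene *Kcnj1* by 0.75 and the tight junction gene *Cldn10* by 1.20 on the log2 scale. *Umod*, which encodes uromodulin, did not pass. It was at 13.90 and 13.74 in the controls and at 12.69, 13.21 and 13.94 after UUO (difference -0.57, SE 0.25, limma adjusted p = 0.162), so the groups overlapped. Without kidney 3820 its adjusted p in limma was 0.0288. Without control 3811, 3 of the 11 genes were called, and *Slc12a1* was not among them (limma adjusted p = 0.0554).

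In the distal convoluted and connecting tubule 7 of 11 genes fell (median -0.35). *Pvalb*, a calcium-binding protein gene of the early distal convoluted tubule, was at 10.16 and 10.13 in the controls and at 6.89, 7.01 and 7.72 after UUO. It was at 6.89 to 7.11 in 6 of 7 kidneys and fell 8.30-fold (log2 difference -3.05, SE 0.16, limma adjusted p = 1.27e-07). *Slc12a3*, the thiazide-sensitive cotransporter gene of the same cells, fell 1.54-fold, from 10.60 and 10.70 to 9.82, 9.88 and 10.40 (limma adjusted p = 0.00832). *Kl*, which encodes the FGF23 co-receptor Klotho, fell 2.41-fold, from 11.11 and 10.95 to 9.30, 9.62 and 10.46 (limma adjusted p = 0.00143). The sodium-calcium exchanger gene *Slc8a1* fell by 1.54 and the kinase gene *Wnk4* by 0.68 on the log2 scale. *Calb1*, *Trpv5* and *S100g* were at background in the controls. Without control 3811, 4 of the 11 genes were called, and *Slc12a3* was not called without either control.

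In the collecting duct, 5 of 11 principal cell genes fell (median -0.44) and 5 of 13 intercalated cell genes fell (median -0.14). *Aqp2*, the vasopressin-regulated water channel gene, was at 9.50 and 9.17 in the controls and at 7.67, 8.17 and 9.09 after UUO, with kidneys 3818 and 3820 highest. It fell 2.12-fold (log2 difference -1.08, SE 0.30, limma adjusted p = 0.0229), and the basolateral water channel gene *Aqp3* fell 2.55-fold, from 9.63 and 9.31 to 7.50, 7.91 and 8.84 (limma adjusted p = 0.00376). The sodium channel gene *Scnn1a* fell by 1.10, while *Scnn1b* (-0.28) and *Scnn1g* (-0.44) did not pass. *Slc4a1*, the chloride-bicarbonate exchanger of acid-secreting cells, fell 4.50-fold, from 9.96 and 9.59 to 6.96, 7.30 and 8.83 (limma adjusted p = 0.0014). *Slc4a1* is also a red blood cell gene. The base-secreting cell gene *Slc26a4* fell by 0.90 and the ammonia channel genes *Rhbg* and *Rhcg* by 0.88 and 1.04 on the log2 scale. Principal cell calls went from 5 to 0 without control 3811 and to 2 without control 3812, and to 8 without kidneys 3818 and 3820. *Aqp2* was not called without either control, nor *Aqp3* without control 3811. Intercalated cell calls went to 3 without either control.

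**Figure D2:**
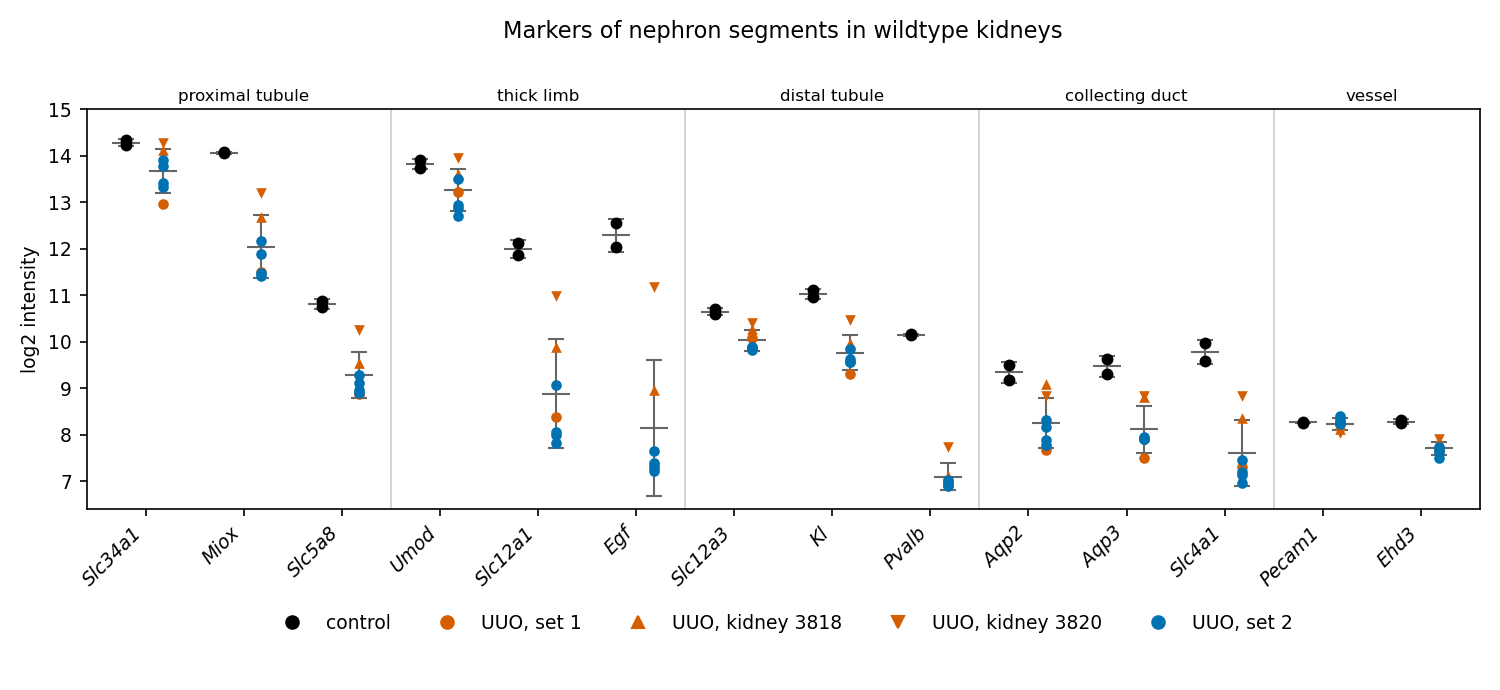
Log2 intensity of 14 markers in the 2 control (black) and 7 UUO (colored) WT kidneys, ordered along the nephron; each point is 1 array, and the bars give the mean and SD of each group. *Egf*, *Slc12a1* and *Pvalb* fell furthest, *Slc34a1*, *Umod* and *Pecam1* overlapped between the groups, and kidneys 3818 and 3820 (triangles) were often nearest to the controls.

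Glomerular and vascular markers differed less. Of 8 podocyte genes, 1 fell (12.5%, against 8.42% of all genes) and none rose (median -0.07). *Podxl* (-0.15), which encodes podocalyxin, and *Cdkn1c* (-0.19), a cell cycle inhibitor gene of podocytes, did not pass. Of 15 endothelial genes, 3 fell and none rose (median -0.07): *Ehd3*, a gene of glomerular capillaries, by 0.57, the adhesion gene *Esam* by 0.42 and the VEGF receptor gene *Flt1* by 0.37 on the log2 scale. *Pecam1* was at 8.27 and 8.26 in the controls and at 8.03, 8.23 and 8.40 after UUO (difference -0.04, SE 0.08, limma adjusted p = 0.845). The endothelial count was 1 without control 3812 and 5 without kidney 3818.

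Genes of mitochondrial oxidation were lower by small amounts in many members. In the citric acid cycle, 11 of 19 genes fell and none rose (median -0.36). *Ogdh*, a subunit of 2-oxoglutarate dehydrogenase, was at 10.82 and 11.13 in the controls and at 9.80, 10.03 and 10.46 after UUO, with no overlap, a 1.84-fold fall (limma adjusted p = 0.000965). All 3 subunits of the NAD-dependent isocitrate dehydrogenase fell (*Idh3a* by 0.67, *Idh3b* by 0.37, *Idh3g* by 0.25), and so did *Sdhb* and *Sdhc* of complex II. Of 37 genes of the respiratory chain and ATP synthase, 13 fell and none rose (median -0.22): 10 subunits of complex I, *Uqcrc1* and *Uqcrc2* of complex III and cytochrome c (*Cycs*). *Uqcrc1* fell 1.46-fold, from 12.20 and 12.34 to 11.61, 11.69 and 11.96 (limma adjusted p = 0.000586). None of the measured subunits of ATP synthase or cytochrome c oxidase passed. Without control 3811, 5 citric acid cycle and 6 respiratory chain genes were called, and 4 of each without control 3812. The respiratory chain count was also 6 with 80 subtracted from each intensity before log2.

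Fatty acid oxidation was mixed. Of 29 genes, 5 fell and 1 rose (median -0.21), the lower ones being *Acads*, *Etfb*, *Acaa1a*, *Acsm2* and *Acsm3*. *Acsm3*, a medium-chain acyl-CoA synthetase gene, was the largest of these falls, from 11.27 in both controls to 10.03, 10.53 and 10.71 (1.74-fold, limma adjusted p = 0.019). *Cyp4a14*, a microsomal fatty acid hydroxylase gene that follows PPAR-alpha, rose 15.3-fold, from 8.75 and 8.19 to 11.07, 12.44 and 13.05 (log2 difference 3.93, SE 0.38, limma adjusted p = 2.89e-05). *Cpt2* (-0.21), of the carnitine shuttle, and *Acadm* (-0.26) and *Acadvl* (-0.10), enzymes of the core spiral, did not pass. None of the 5 lower calls was left without control 3811 or without control 3812, and *Cyp4a14* was called in all 9 leave-one-out fits, beside a second higher gene without kidney 3819.

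Glucose production and amino acid breakdown, both tasks of the proximal tubule, held more lower genes. *G6pc*, the last enzyme of glucose release, was at 13.08 and 13.15 in the controls and at 8.35, 9.18 and 11.78 after UUO. Kidneys 3818 (11.78) and 3820 (11.61) were the highest, and the fall was 9.52-fold (log2 difference -3.25, SE 0.72, limma adjusted p = 0.00678). The glucose-6-phosphate carrier gene *Slc37a4* fell by 0.89 and the fructose kinase gene *Khk* by 1.56 on the log2 scale, and 4 of 10 genes on the list fell (median -0.56). None of these 4 was called without control 3811 or without control 3812, and 7 genes were called without kidney 3820. Of 30 genes of amino acid breakdown, 14 fell and 2 rose (median -0.57). *Ass1*, argininosuccinate synthase, fell 3.14-fold, from 13.52 and 13.47 to 11.33, 11.69 and 12.90 (limma adjusted p = 0.00206). Of the genes of branched-chain amino acid breakdown, *Bckdha*, *Bckdhb*, *Dbt*, *Ivd*, *Pcca* and *Pccb* fell by 0.40 to 1.11 on the log2 scale, while *Mccc1* (-0.34), *Hibadh* (-0.30) and *Aldh6a1* (-0.55) did not pass. *Arg2*, the mitochondrial arginase gene, rose 4.43-fold, from 7.50 in both controls to 8.75, 9.76 and 10.24 (limma adjusted p = 0.000166), and *Oat*, which uses the product of arginase, rose by 0.66. The 14 lower calls became 5 without control 3811 and 7 without control 3812.

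Glycolysis showed 1 gene in each direction among 15 (median 0.02), both of them phosphofructokinase isoforms. Each is 6.67% of the list, near the shares of all genes (6.93% higher and 8.42% lower). *Pfkm* fell 1.76-fold, from 9.10 and 9.05 to 7.92, 8.16 and 8.86 (limma adjusted p = 0.0134), and *Pfkp* rose 1.43-fold, from 7.76 and 7.69 to 8.05, 8.27 and 8.40 (limma adjusted p = 0.00337). *Pfkm* was not called without either control, and *Pfkp* was not called without control 3812. *Ldha* (0.20), *Gapdh* (-0.05) and *Aldoa* (0.17) did not pass.

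The detoxification and secretion genes that passed were lower, apart from *Gstm1*. Of 25 cytochrome P450 and conjugation genes, 7 fell and 1 rose (median -0.61), with *Cyp2j13* down by 2.00, *Cyp2j11* by 1.47, *Fmo5* by 1.19 and *Cyp4b1* by 0.99 on the log2 scale beside *Inmt*. Without kidney 3820, 15 of these genes were called lower, and 4 and 3 without control 3811 or 3812. The 1 rise, *Gstm1* (0.45), was lost in 6 of the 9 leave-one-out fits. Of 19 organic ion transporters, 6 fell and none rose (median -0.28). *Slc22a2*, the basolateral cation carrier OCT2, fell by 0.73 (limma adjusted p = 0.000299), *Slc47a1*, its apical partner MATE1, by 0.95 and the urate exchanger gene *Slc22a12* by 0.67. The transporter calls went to 3 without control 3811 and 2 without control 3812, and to 10 without kidneys 3818 and 3820.

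Transcription factors of tubule cells were lower in part. Of 17 genes, 8 fell and 1 rose (median -0.28). *Esrrb*, an orphan receptor gene of the distal nephron, was at 10.27 and 9.96 in the controls and at 7.81, 8.14 and 8.99 after UUO, a 3.56-fold fall (log2 difference -1.83, SE 0.24, limma adjusted p = 0.00025). *Ppargc1a*, which encodes the coactivator PGC-1alpha of mitochondrial genes, fell 2.52-fold, from 9.93 and 9.74 to 8.02, 8.34 and 9.25 (limma adjusted p = 0.00143), and its partner *Esrra* fell by 0.78. *Hnf4a*, a factor of proximal tubule identity, fell 1.80-fold, from 11.86 and 11.74 to 10.51, 10.85 and 11.53 (limma adjusted p = 0.0196), and was not called without either control. *Pax8*, a nephron lineage factor, rose from 7.29 and 7.27 to 7.45, 7.67 and 8.04 (limma adjusted p = 0.0442), a call that 3 of the 9 leave-one-out fits kept. The 8 lower calls became 5 without control 3811 and 3 without control 3812.

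Of 19 injury genes of the tubule, 14 were called higher and none lower, with a median of 1.07. *Spp1*, which encodes osteopontin, was at 12.43 and 12.07 in the controls and at 13.51, 13.72 and 13.80 after UUO (log2 difference 1.45, SE 0.09, limma adjusted p = 5.52e-07). The kidneys were closer together here than for *Havcr1*. The keratin genes *Krt8*, *Krt18*, *Krt7* and *Krt19* rose by 1.62, 1.29, 0.75 and 0.32, the TWEAK receptor gene *Tnfrsf12a* by 2.89, the ferroxidase gene *Cp* by 2.09 and *Sox9*, a factor of regenerating tubule cells, by 0.87 on the log2 scale. *Vcam1* (0.40) did not pass, and *Cd44*, *Anxa1*, *Cd24a* and *Prom1* were at background in the controls. *Krt20*, on the urothelium list, rose 9.45-fold, from 6.82 and 6.78 to 8.11, 10.21 and 11.56 (limma adjusted p = 0.00202), while the uroplakin genes *Upk1a*, *Upk1b*, *Upk2*, *Upk3a* and *Upk3b*, which define urothelium, were at background in the controls and differed by -0.11 to -0.19, none called. Without control 3812, 8 of the 19 injury genes were called.

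In the acute phase and STAT3 list 11 of 19 genes rose and none fell (median 1.05), including 2 of the 3 fibrinogen chains. *Fgg*, the gamma chain, was at 8.60 and 8.01 in the controls and at 12.03, 13.44 and 13.84 after UUO, a 32.6-fold rise (log2 difference 5.03, SE 0.33, limma adjusted p = 5.52e-07). *Fga*, the alpha chain, rose 16.3-fold, from 9.34 and 9.94 to 12.20, 13.91 and 14.14 (limma adjusted p = 1.69e-05). *Fgb*, the beta chain, was at background in every WT array, also in kidney 3818 with its liver transcripts. Whether the array detects *Fgb* was not tested, so its values do not show that this chain did not rise. The complement gene *C3* rose from 8.63 and 8.43 to 10.14, 12.06 and 12.38 (log2 difference 3.32, SE 0.42, limma adjusted p = 0.000194). *Stat3* and its feedback inhibitor *Socs3* rose by 1.10 and 2.55, the oncostatin M receptor gene *Osmr* by 1.05 and *Cebpb* by 1.67 on the log2 scale. These are liver genes as well, and without kidney 3818 the differences of *Fgg*, *Fga*, *C3* and *Lrg1* were 5.02, 3.99, 3.29 and 3.56. *Serpina3n* was highest in kidney 3818 (10.33, against 8.40 to 9.48 in the other 6), with a difference of 2.13 that was 1.94 without it. *Hp* and *Orm1* did not pass and stood at 10.16 and 9.77 in kidney 3818 against at most 7.48 and 7.05 in the 8 other WT arrays.

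**Figure D3:**
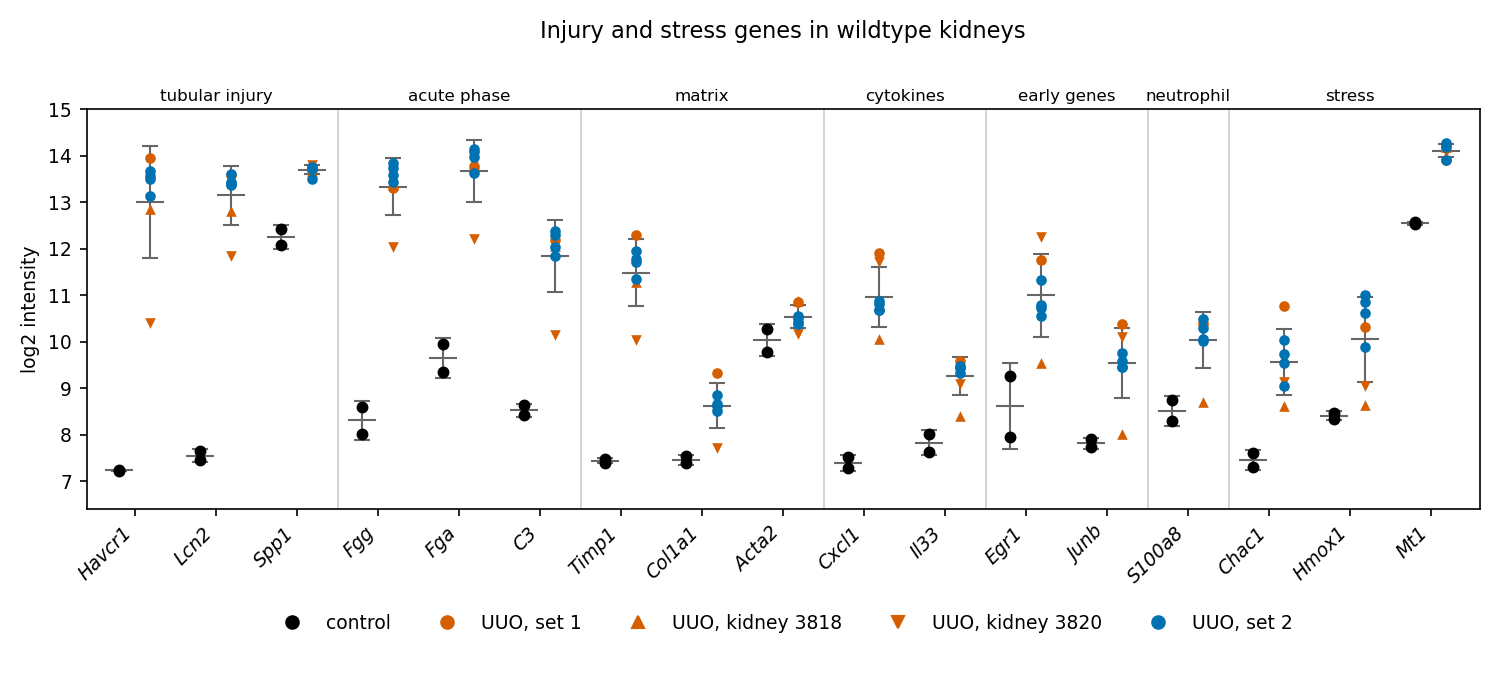
Log2 intensity of 17 injury, inflammatory and stress genes in the 2 control (black) and 7 UUO (colored) WT kidneys; each point is 1 array, and the bars give the mean and SD of each group. *Havcr1*, *Lcn2* and *Fgg* rose furthest, kidney 3820 was lowest for the acute-phase genes, and kidney 3818 was the lowest UUO kidney for *Egr1*, *Junb*, *S100a8* and *Il33*.

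Matrix genes were higher in many members. Of 29 genes, 14 were called higher and none lower (median 0.47). *Timp1*, the inhibitor of matrix proteases, rose 16.5-fold, from 7.40 and 7.47 to 10.04, 11.70 and 12.29 (limma adjusted p = 2.94e-05). *Col1a1* was at 7.38 and 7.54 in the controls and at 7.72, 8.63 and 9.33 after UUO, a 2.24-fold rise with kidney 3820 lowest (log2 difference 1.16, SE 0.30, limma adjusted p = 0.0156). *Col3a1* rose 1.78-fold, from 6.98 and 7.0 to 7.25, 7.93 and 8.03 (limma adjusted p = 0.00347). *Col1a2* did not pass: its 7.32 and 7.27 in the controls overlapped 7.06, 7.59 and 7.82 after UUO (difference 0.24, SE 0.17, limma adjusted p = 0.448). The basement membrane chains *Col4a1* and *Col4a2* rose by 1.13 and 0.94, *Sparc* by 1.05 and *Col5a1* by 1.34 on the log2 scale. *Tgfb1* (0.41) did not pass. *Col1a1* and *Col3a1* were not called without either control, and the count of 14 became 5 without control 3811 and 3 without control 3812.

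Of 13 markers of fibroblasts, pericytes and smooth muscle, 4 were higher and 1 was lower (median 0.01). The lower share, 7.69%, was near the 8.42% of all genes. *Acta2*, smooth muscle actin, was at 9.79 and 10.28 in the controls and at 10.17, 10.51 and 10.87 after UUO, a 1.42-fold rise in which the groups overlapped (limma adjusted p = 0.037). *Des*, *Pdgfrb* and *Tagln* rose by 0.45, 0.38 and 0.33 on the log2 scale. *Myh11*, the myosin of mature smooth muscle, fell 1.48-fold, from 7.66 and 8.07 to 7.17, 7.31 and 7.53 (limma adjusted p = 0.00352). *Pdgfra* (-0.24) and *Dcn* (-0.13), fibroblast genes above background, did not pass. The 4 higher calls became 0 without control 3811, 1 without control 3812 and 2 without kidney 3893 or kidney 3895, and *Myh11* was not called without control 3812.

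Of 28 chemokine and cytokine genes, 10 rose and 1 fell (median 0.25). *Cxcl1*, a neutrophil attractant, was at 7.52 and 7.28 in the controls and at 10.05, 10.81 and 11.91 after UUO, an 11.8-fold rise (log2 difference 3.57, SE 0.37, limma adjusted p = 4.54e-05). *Il33*, the nuclear alarmin, rose 2.68-fold, from 7.63 and 8.02 to 8.39, 9.44 and 9.58 (log2 difference 1.42, SE 0.22, limma adjusted p = 0.000815), with kidney 3818 lowest. *Il1rl1*, which encodes its receptor ST2, was at background in all 9 arrays (6.84 to 7.01). *Il11* rose by 1.97, the macrophage growth factor genes *Il34* and *Csf1* by 1.34 and 0.43, and the membrane-bound chemokine gene *Cx3cl1* by 0.88. *Cxcl12* fell 2.29-fold, from 9.28 and 9.44 to 7.73, 7.96 and 8.95 (limma adjusted p = 0.00299), and was not called without control 3812. *Tnf*, *Il6* and *Ccl2* were at background in the controls and did not pass. The 10 higher calls became 3 without either control.

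Leukocyte markers gave calls in the macrophage and neutrophil lists and none among lymphocyte genes. Of 16 macrophage and monocyte genes, 3 rose (18.8%, against 6.93% of all genes) and 1 fell (median 0.14). *Cd14*, the lipopolysaccharide co-receptor, rose 6.16-fold, from 7.65 and 7.70 to 9.0, 10.61 and 11.07 (limma adjusted p = 0.001), and *Cd68* and *C1qa* rose by 0.62 and 0.44. *Csf1r*, the receptor that defines the lineage, fell 1.34-fold, from 7.86 and 7.89 to 7.40, 7.45 and 7.50 with no overlap (limma adjusted p = 4.38e-05), and *Adgre1* was near background. Of 11 neutrophil genes, 2 rose (18.2%), *S100a8* 2.87-fold (8.74 and 8.28 to 8.71, 10.29 and 10.48, limma adjusted p = 0.0224) and *Retnlg* by 0.70. Kidney 3818 lay within the controls for *S100a8*, and the other 6 UUO kidneys were all at 10.02 or above. None of 14 lymphocyte genes passed in limma (median -0.0026), and all were close to background. The macrophage count became 1 and the neutrophil count 0 without either control, so that *S100a8* was lost in both fits, and the neutrophil count was 1 without kidney 3892 or kidney 3895.

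Immediate-early genes gave 8 higher and no lower calls of 22 (median 0.23). *Egr1*, a zinc finger factor induced within minutes of a stimulus, was at 9.26 and 7.96 in the controls and at 9.54, 10.78 and 12.26 after UUO (log2 difference 2.38, SE 0.53, limma adjusted p = 0.00733). The controls differed by more than a log2 of 1 here. *Junb*, *Jun* and *Egr2* rose by 1.72, 0.96 and 1.37, *Klf6* by 1.72 and *Ccn1* by 1.82 on the log2 scale, while *Fos* (0.84), *Zfp36* (0.64) and *Dusp1* (-0.63) did not pass. Over the 22 genes the mean relative to the controls was 0.08 in kidney 3818 and 0.51 to 0.95 in the other 6, highest in kidney 3820, so the kidney nearest to the controls in tubule genes was not so in these. The count became 4 without control 3811 and 3 without control 3812, and *Egr1* was not called without control 3812. Without kidney 3820, 1 gene was called lower.

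Genes of growth arrest and of DNA replication were both higher in part. Of 20 genes of p53 and cell death, 9 rose and 1 fell (median 0.29). *Gdf15*, a stress cytokine gene, rose 4.23-fold, from 8.35 and 8.62 to 9.57, 10.64 and 11.49 (limma adjusted p = 0.000911), *Gadd45a* rose by 1.70 and the cell cycle inhibitor gene *Cdkn1a* by 1.25. *Sesn2* fell by 0.31 on the log2 scale, and *Mdm2* (0.13) and *Ccng1* (-0.09), p53 targets well above background, did not pass. Of 27 cell cycle genes, 9 rose and none fell (median 0.20), all 9 of DNA replication or its onset. *Mcm5*, a subunit of the replicative helicase, rose 2.40-fold, from 7.65 and 7.56 to 7.81, 9.03 and 9.48 (limma adjusted p = 0.0104), and *Mcm2*, *Mcm3*, *Mcm4* and *Mcm7* rose by 0.26 to 0.94. The mitotic genes *Ccnb1*, *Cdk1*, *Plk1* and *Bub1* were close to background in the controls and did not pass. The p53 count became 3 and the cell cycle count 2 without either control, and the cell cycle count was 5 without kidney 3892. *Mcm5* was not called without either control, nor *Sesn2* without control 3812.

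Stress responses rose in part. In the unfolded protein and integrated stress response list, 7 of 18 genes rose and 1 fell (median 0.51). *Chac1*, a glutathione-degrading enzyme gene driven by ATF4, rose 4.30-fold, from 7.60 and 7.30 to 8.61, 9.54 and 10.77 (limma adjusted p = 0.00385), and the amino acid synthesis genes *Asns* and *Psat1* rose by 1.77 and 1.23. *Herpud1*, a gene of protein degradation at the endoplasmic reticulum, fell 1.68-fold (limma adjusted p = 0.0198), and the chaperone genes *Hspa5* (0.17) and *Hsp90b1* (-0.03) did not pass. Of 18 antioxidant and metallothionein genes, 6 rose and 2 fell (median 0.16). *Mt1* rose from 12.57 and 12.52 to 13.91, 14.19 and 14.26 (log2 difference 1.56, SE 0.12, limma adjusted p = 2.87e-06). *Hmox1* rose 3.13-fold, from 8.47 and 8.33 to 8.63, 10.32 and 11.01 (limma adjusted p = 0.0393), a call kept in 2 of 9 leave-one-out fits. *Sod1* and *Sod2* fell by 0.30 and 0.33. Of 10 heat shock genes, *Hspb1* (1.81) and *Cryab* (1.14), small chaperones, rose. Without control 3811 or control 3812, the stress response count was 4 and 3, the antioxidant count 3 and 3, and the heat shock count 0 and 0. *Herpud1* was not called without either control, nor *Chac1* without control 3812. Neither superoxide dismutase gene was called without either control and 1 of the pair without kidney 3892, 3893 or 3895, and 1 heat shock gene was called without any single set 2 kidney.

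The remaining programs held genes in both directions. Of 6 EGF family genes measured on that list, the ligand genes *Hbegf* and *Areg* rose by 1.14 and 0.94 while *Btc* fell by 0.54 and *Egfr* (0.24) did not pass. Of 20 interferon response genes, 5 rose and 2 fell (median 0.08), with *Gbp3* up by 0.70 and *Rsad2* down by 0.76 on the log2 scale. Of 15 cholesterol synthesis genes, *Sqle* and *Fdps* rose by 0.83 and 0.70, and *Cyp51*, *Mvd*, *Idi1* and *Dhcr7* fell by 0.22 to 0.95. Of 16 circadian clock genes, *Bhlhe40* rose by 1.05, and *Arntl* and *Tef* fell by 0.72 and 0.82. Without control 3811 or control 3812 none of the interferon genes and none of *Hbegf*, *Areg*, *Bhlhe40*, *Tef* and *Cyp51* was called, and 2 and 1 of the 4 lower cholesterol genes were. *Btc* was not called without control 3811. The higher interferon count was 8 without kidney 3820 and 3 without kidney 3892 or kidney 3893, and the lower one was 1 without kidney 3818.

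Lists of tissues that could be carried along gave no calls. None of 7 adipose and 7 adrenal cortex genes passed in limma, and the adrenal genes were at background in the controls. The adipose gene *Cfd* was at 9.19 in kidney 3818 and at 6.96 to 7.28 in the 8 other WT arrays. None of 5 red blood cell genes passed (median -0.67), but *Hba-a1* ranged from 11.68 to 14.18 after UUO with 14.10 and 13.52 in the controls, and 1 of the 5 was called lower without kidney 3818 and 3 without kidneys 3818 and 3820. *Hbb-b1* (8.06 to 10.34 after UUO, 10.37 and 9.33 in the controls) and *Alas2* (7.02 to 9.25, 8.67 and 8.06) were also highest in kidney 3818 among the UUO kidneys. The part of blood content in the fall of *Slc4a1* was not tested. *Ddx3y*, on the Y chromosome, was well above background in all 9 arrays and fell by 0.25 on the log2 scale, a call lost without either control, while *Xist* was at background in all 9.

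**Figure D4:**
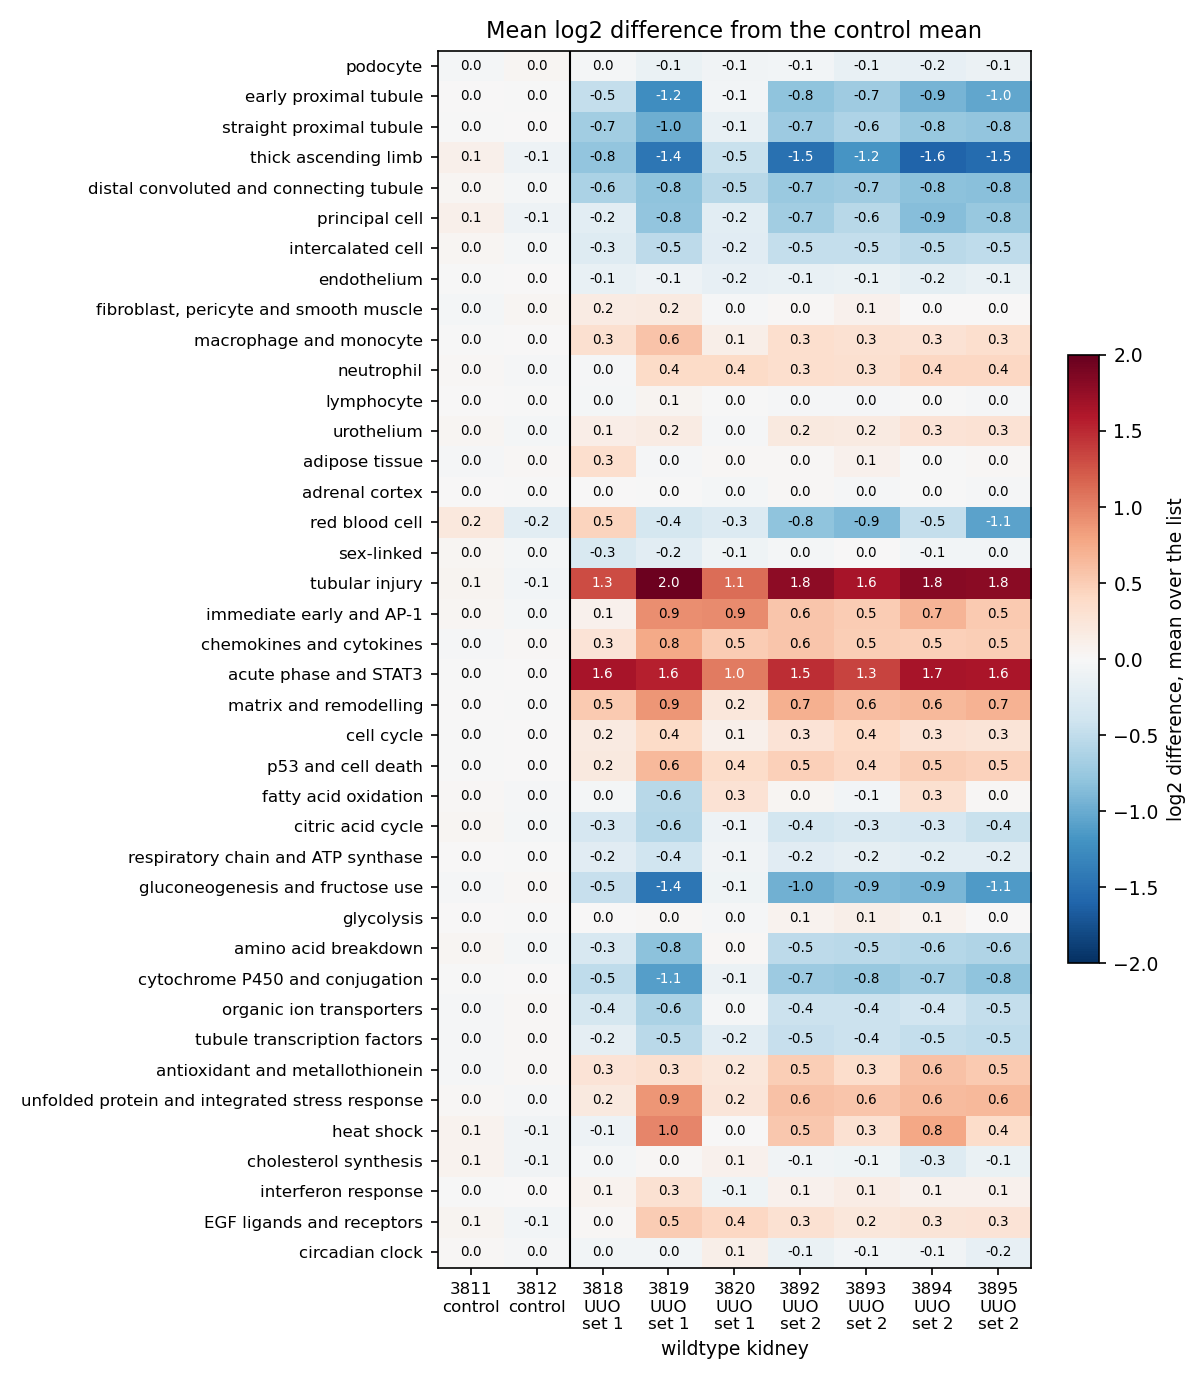
Mean over the genes of each list of the log2 difference from the mean of the 2 controls, for each WT kidney (columns: 2 controls, then UUO kidneys of set 1 and set 2; color from -2 blue to 2 red). Kidney 3820 stays near 0 in early proximal tubule (-0.06) and amino acid breakdown (0.02) but not in immediate-early genes (0.95), and kidney 3818 stands at -0.48, -0.32 and 0.08 in these lists.

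The anchor genes, chosen by name, were also tested without a model. Of 20 anchor genes measured, 14 were called by limma, and 13 of these stood at p = 0.0278 in the exact two-sided permutation test, the smallest that 2 against 7 arrays allow. The 1 called gene short of it was *Acta2* (exact p = 0.0833). The test used the same 9 arrays as the WT groups in limma, so it is no independent check, and its p-values were not adjusted. Among all genes, every UUO kidney lay above both controls in 9.81% and below both in 11.7%. The 6 not called were *Slc34a1*, *Lrp2*, *Umod*, *Pecam1*, *Col1a2* and *Il1rl1*.

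Set 2 kidneys differed from set 1 kidneys in few called genes. Limma called 11 genes higher (0.0607% of all) and 6 lower (0.0331%) in set 2, and 2321 had an unadjusted p under 0.05. The largest were *Cyp2d12*, lower by 1.33 in set 2, and *Rps3a1*, higher by 0.73. None of the 75 genes named by rule was among them. With array weights, which count kidneys 3818 and 3820 less, the counts were 362 and 441. Against the same controls, the 3 kidneys of set 1 gave 402 higher and 502 lower genes and the 4 kidneys of set 2 gave 1916 and 2117, and set 1 holds both kidneys that stood apart.

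In IL-33 KO kidneys, compared with their own 2 controls, 1869 genes were higher (10.3%) and 2099 lower (11.6%) after UUO. The WT calls were 87.8% KO calls among the higher genes and 82.5% among the lower, and the shared genes were 1103 of the 1869 higher and 1260 of the 2099 lower KO calls. No WT call was a KO call in the opposite direction. Of the 2783 WT calls, 98.8% had the same direction in KO kidneys, against 70.2% of all genes. The difference between the genotypes in the response gave no called gene in limma, with 870 genes at an unadjusted p under 0.05 and a smallest adjusted p of 0.824. *Il33*, the deleted gene, differed by 0.02 in the KO kidneys against 1.42 in WT, and the test of the difference did not call it either. With 2 controls in each genotype and this known difference missed, the lack of calls does not show that the responses were alike. *Miox* differed by -3.10 in KO and -2.02 in WT, *Slc34a1* by -1.54 and -0.60, and *Acta2* by 1.52 and 0.50, none of them past the test of the difference between genotypes.

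**Figure D5:**
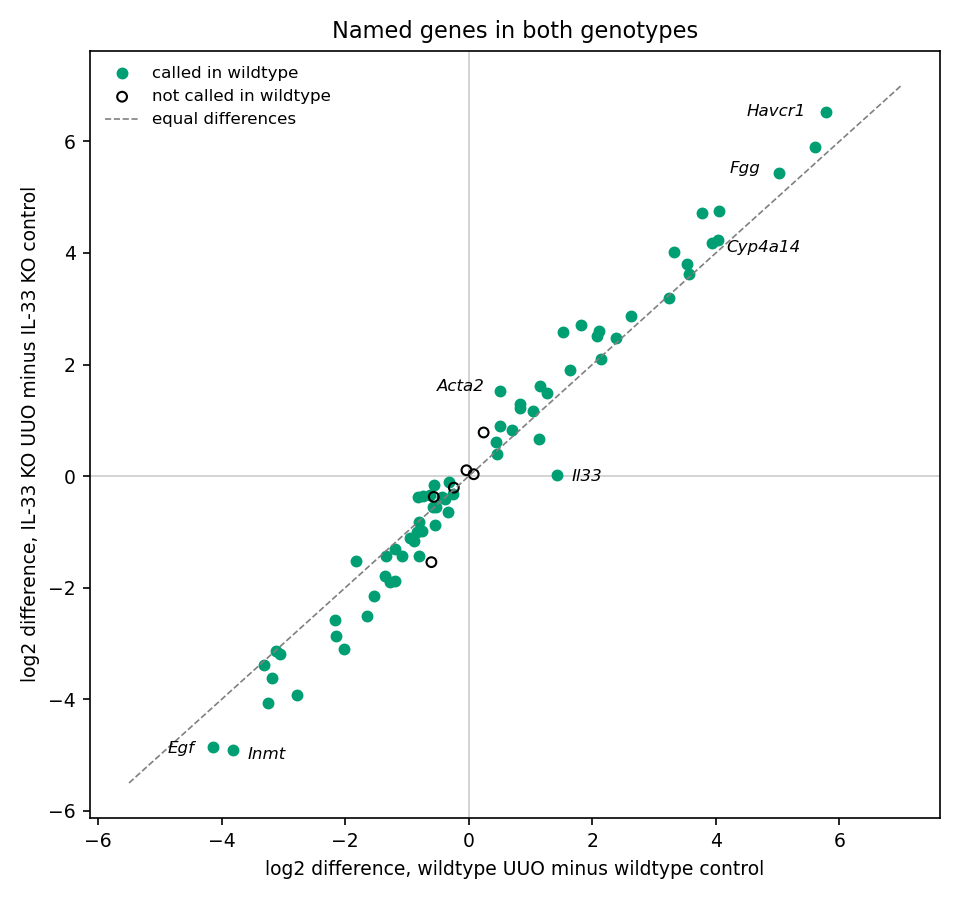
Log2 difference after UUO in IL-33 KO kidneys (5 UUO against 2 control arrays, vertical) against that in WT kidneys (7 against 2, horizontal) for the 75 named genes; filled points were called in WT, open points were not, and the dashed line marks equal differences. Most genes lie near the line, and *Il33* stands off it at 1.42 in WT and 0.02 in KO.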

How the data were processed

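RNA of whole-kidney homogenate from 16 kidneys, 9 of them WT, was hybridized to Illumina MouseRef-8 BeadChips. The authors deposited 1 linear intensity per gene symbol and array (18132 genes), read with BeadStudio version 2 per the labels. Background correction, normalization and the rule from probes to genes are not given in the sources used here. The arrays were already alike in their values (array medians 132.35 to 133.42), and without detection p-values no dim gene was removed. Folds of genes near background are therefore understated, and precision is limited by how few arrays there are.

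Groups were taken from the labels. Log2 intensities were fitted with limma 3.58.1 in R 4.3.3, in 1 model of 4 groups, and p-values were adjusted by Benjamini-Hochberg over all genes. The fit was tested on simulated data, where it recovered 94.0% of 200 genes changed by a log2 of 1 and called 9 unchanged genes. Alternatives were other scalings, a background subtraction, trend and array weights, a filter on dim genes, fold thresholds, the WT arrays alone, each set alone, and leaving out each array in turn. Of the table's symbols, 14305 matched a RefSeq symbol, 2660 a synonym, and 1167 kept the table's name.

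The members of the 40 lists (17 of cell types, 23 of programs) were chosen with earlier results of these data known, and 50 of 696 listed genes were not matched. Named genes were the 10 largest called rises and falls, the largest called rise and fall of each list, and the anchor genes, 75 in all. Other genes named beside them are list members given as examples, and some genes are not reported here.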

Additional observations from a re-analysis of the deposited data

Results flagged for a closer look

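In 75 named genes the 7 WT UUO kidneys were searched for a kidney apart from the rest, by its gap to the nearest other kidney relative to the whole range. 15 genes had one. The cutoff is set so that about 1 in 20 genes with normal values would have one. These genes share the same kidneys and many were picked by their differences, so the count was not tested against chance. Kidney 3820 was the one apart in 10 of them, kidney 3818 in 4 and kidney 3819 in 1.

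Kidney 3820 was the lowest for *Havcr1* (10.41, the others 12.84 to 13.95), *Fgg* (12.03, the others 13.31 to 13.84), *Fga* (12.20, the others 13.63 to 14.14), *Serpina10* (9.42, the others 10.92 to 11.76) and *C3* (10.14, the others 11.83 to 12.38). It was the highest for *Nccrp1* (8.83, the others 6.87 to 7.16), *Pvalb* (7.72, the others 6.89 to 7.11), *Slc16a4* (9.73, the others 7.78 to 8.49), *Cyp51* (9.86, the others 8.63 to 9.01) and *Lrp2* (7.62, the others 7.06 to 7.28). In all 10 genes it was nearer to the control mean than the other 6 UUO kidneys were.

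Kidney 3818 was the lowest for *S100a8* (8.71, the others 10.02 to 10.48), *Bhlhe40* (10.09, the others 11.06 to 11.53), *Il33* (8.39, the others 9.10 to 9.58) and *Ddx3y* (8.46, the others 8.61 to 8.72). Kidney 3819 was the lowest for *Cyp4a14* (11.07, the others 12.33 to 13.05).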

How the results depend on the processing

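The counts of 1256 higher and 1527 lower genes stayed within 1.5 times under quantile scaling (1263 and 1491), median centring, a subtraction of 80, an intensity trend, array weights (1874 and 2134) and brighter genes only. They were 779 and 1000 in the 9 WT arrays alone, 465 and 499 at a fold of at least 1.5, 178 and 150 at a fold of at least 2, and 402 and 502 with the UUO kidneys of set 1 only. There were 1916 higher genes with set 2 only and 1982 without kidneys 3818 and 3820. Leaving out 1 array at a time gave 365 to 1679 higher and 453 to 1896 lower genes, the lowest without control 3812 and the highest without kidney 3820. Between the sets, array weights gave 362 higher and 441 lower genes and brighter genes only gave 18 higher. *Pecam1*, not called, changed sign to 0.0003 with array weights, 0.0402 with set 2 only and 0.024 without kidneys 3818 and 3820. The cause was not tested. No paired analysis was possible because the array numbers are unique and shared by no groups.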

Other observations

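Some genes of fuel use and of stress varied among the UUO kidneys without passing in limma. *Pdk4*, the kinase that holds back pyruvate oxidation, was at 8.63 and 8.52 in the controls, at 8.28, 8.67 and 9.90 in set 1 and at 9.88 to 11.80 in set 2 (difference 1.39, limma adjusted p = 0.205). *Acaa1b*, a peroxisomal thiolase gene, was lowest in kidney 3819 (11.04, the other UUO kidneys 12.23 to 13.18). *Hspa1a*, an inducible heat shock gene, was at 11.38 in kidney 3819 and at 8.33 to 9.35 in the other 6 UUO kidneys, with 9.04 and 8.19 in the controls.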
